A study of Homo sapiens with 6 samples.

Results

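The luminal lineage transcription factors are the DNA-binding proteins that give oestrogen receptor-positive breast cancer cells their luminal epithelial character. The set comprised 10 genes, taken by symbol from the 60656 genes of the count table: ESR1, FOXA1, GATA3, TFAP2A, TFAP2C, SPDEF, XBP1, ELF3, GRHL2 and TRPS1. All 10 were found and all 10 had enough counts to be among the 10863 genes tested. Membership was set by lineage role, but with earlier results of these data known, as was that of the lists of related genes used below.

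The RNA-seq libraries came from parental ZR-75-1 cells, an established oestrogen receptor-positive human breast cancer line, and no library of RB1 knockout cells was analysed here. The cells were exposed for 4 days to 500 nM abemaciclib, an inhibitor of the cell cycle kinases CDK4 and CDK6, or to an equal volume of the solvent DMSO. There were 3 libraries in each group, and both groups grew in RPMI-1640 medium with serum. The comparison asked how the mRNA of each lineage factor differed between treated and control cells of this line.

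Luminal cells line the ducts of the breast, and their gene programme is run by a small group of factors that bind the same enhancers. The oestrogen receptor ERα is activated by its hormone and binds DNA together with FOXA1, a pioneer factor that opens chromatin, and GATA3, a zinc finger factor needed for luminal differentiation. AP-2 proteins, grainyhead-like proteins and epithelial ETS factors act on many of the same elements, and XBP1 drives the secretory apparatus.

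Total counts per library were between 3317860 and 4013156, and a count of 0 allowed up to 3 counts, or 0.74 to 0.909 CPM (a count relative to its library's total, after scaling by the trimmed mean of M values), a limit that covers counting error only. Each library counted the 3′ ends of polyadenylated transcripts, so levels of different genes could be compared without a correction for length. Values are relative to the rest of the RNA in a bulk sample, in which fewer cells of a type and less RNA per cell cannot be told apart. Abemaciclib replicate 3 stood somewhat apart from the other libraries of its group: the chi-square per gene was 6.9 and 7.29 against abemaciclib replicates 1 and 2, and at most 4.2 between any other pair of the same group. The proliferation marker MKI67 averaged 526 CPM in the controls (SD 31.4) and 5.00 CPM in the treated libraries (SD 2.28, n = 3 each), and all 5 proliferation genes examined were lower.

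With abemaciclib, 4 of the 10 luminal factors were higher (ESR1, TFAP2C, XBP1 and TFAP2A), 2 were lower (ELF3 and SPDEF) and 4 (GATA3, FOXA1, GRHL2 and TRPS1) did not pass the threshold, an adjusted p under 0.05 in edgeR's quasi-likelihood test. For the whole table, 12.5% of the genes tested were higher and 13.3% lower by the same rule, 25.7% in either direction. The luminal factors were more abundant than most of these genes. In mean level GRHL2 lay above 57.8% of the genes tested, and the others lay above 88.3% (ELF3) to 99.5% (GATA3). Small changes pass more easily at high counts, and the share called among genes of like abundance was not computed. The largest rise was that of ESR1, at a log2 fold change of 0.83, and the largest fall was that of ELF3, at -0.56. The median log2 fold change of the 10 factors was 0.15, beside -0.002 for all genes tested. The groups did not overlap for the same 6 genes, 4 with every abemaciclib library above and 2 with every one below. Such separation was seen above the controls in 19.1% of all genes tested and below them in 20.1%, or 39.1% together. DESeq2 called 3 higher and 2 lower, where it called 19.3% of the genes it tested in either direction. Without abemaciclib replicate 3 the counts were again 4 higher and 2 lower, but GATA3 was then called and TFAP2A was not.

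**Figure D1:**
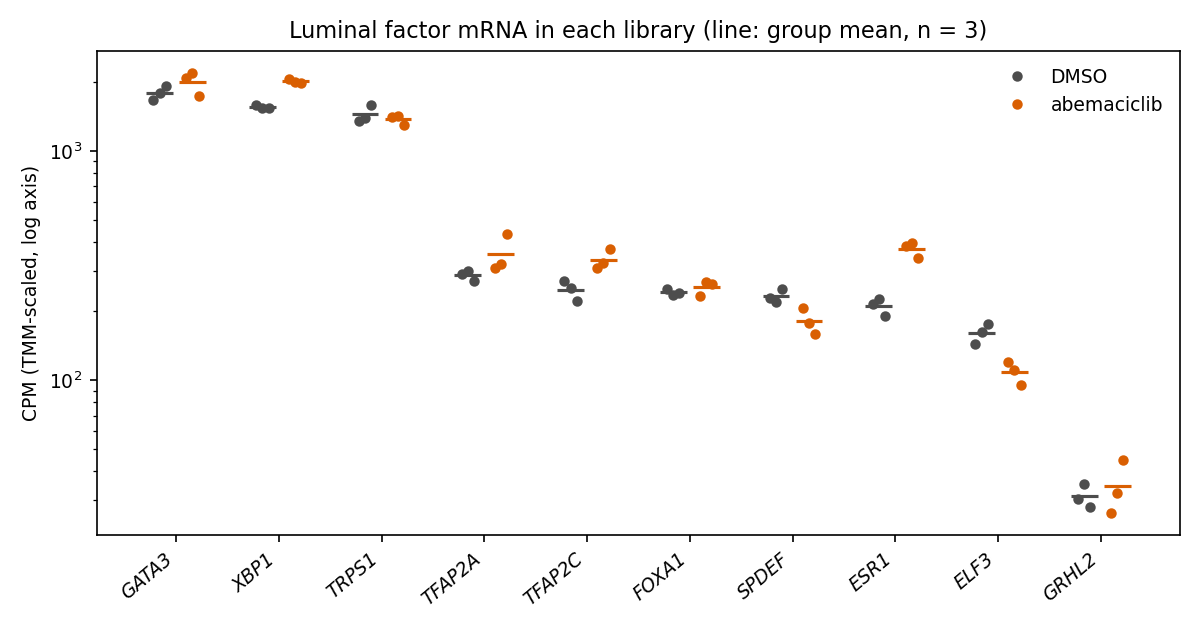
Level of each luminal factor in every library, in CPM on a logarithmic axis, with grey points for DMSO, orange points for abemaciclib and a line at each group's mean. GATA3, XBP1 and TRPS1 lay far above the other 7 in every library, GRHL2 lay below them all, and the groups separated for ESR1, TFAP2A, TFAP2C, SPDEF, XBP1 and ELF3.

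The 10 factors differed widely in abundance. Summed over the set, they took 0.6% to 0.639% of all counts in the DMSO libraries and 0.655% to 0.731% in the abemaciclib libraries, so that the 2 ranges did not overlap. GATA3, XBP1 and TRPS1 together made up 74.6% to 78.6% of this sum in each library. With DMSO, GATA3 was the most abundant, XBP1 and TRPS1 overlapped each other, and TFAP2A followed at a level 5.04-fold below that of TRPS1. TFAP2A, TFAP2C, FOXA1, SPDEF and ESR1 then formed a run in which each overlapped its neighbour, followed by ELF3 and, 5.16-fold below ELF3, by GRHL2. With abemaciclib, ESR1 stood at rank 4 instead of rank 8 and overlapped with TFAP2A, while XBP1 and GATA3 overlapped at the top. SPDEF and ELF3 then stood apart from FOXA1 and from each other, with no overlap between neighbours.

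ESR1 encodes ERα, the hormone receptor that defines this class of tumour and the target of endocrine therapy. The gene lies on chromosome 6 of GRCh38 from 151656691 to 152129619. In the DMSO libraries ESR1 was at 215, 225 and 191 CPM. In the abemaciclib libraries it was at 385, 395 and 340.2 CPM. Every treated library lay well above every control library, and the spread within either group was small beside the gap. The group means were 210.6 ± 17.4 and 373 ± 29.0 CPM (SD, n = 3 each), a 1.77-fold difference in level. The log2 fold change was 0.83 (standard error 0.10, 95% interval 0.62 to 1.03, adjusted p = 2.92e-07 in edgeR's quasi-likelihood test). It was the only luminal factor that passed when a log2 fold change of at least 0.5 was itself tested, a criterion that 8.01% of all genes met in either direction. Of all genes tested, 14.7% had a larger change in either direction. ESR2, which encodes the other oestrogen receptor, had at most 0.135% of the counts of the pair in any library.

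A promoter window of ESR1 is shown because this gene had the largest rise of the set. Windows of 300 bases, from 250 bases before a start site to 50 after it, were taken from RefSeq on GRCh38.p14. A window was found for 7 of the 10 luminal factors. ESR1 had 6 windows and XBP1 had 2, and only the window nearest to the start of the main annotated transcript is described. The motifs of the other windows of these genes are not given here. Each window was searched on both strands for 12 motifs, and matches are in capitals. AP-2 was represented by GCCNNNGGC, the forkhead family by TGTTTAC and the zinc finger family of GATA3 by AGATAA. For ETS proteins the letters were CCGGAA, for the E2F family they were TTCCCGC and for AP-1 they were TGANTCA. The oestrogen receptor was represented by the single arm AGGTCA of its binding site and by the palindromic oestrogen response element, which joins a pair of such arms. The general promoter motifs were the GC box (GGGCGG), the TATA box (its letters being TATAAA) and the CCAAT box, named by its letters. The endoplasmic reticulum stress element, or ERSE, starts with a CCAAT box and ends with CCACG, so each ERSE also counted as a CCAAT box. The ESR1 window, on the plus strand at chr6:151807432-151807731, surrounds the start of the main annotated transcript and held a CCAAT box at position -105 from the start and a GC box at -224. Such boxes were in 34.6% and 45.0% of all 35116 windows.
ESR1 promoter: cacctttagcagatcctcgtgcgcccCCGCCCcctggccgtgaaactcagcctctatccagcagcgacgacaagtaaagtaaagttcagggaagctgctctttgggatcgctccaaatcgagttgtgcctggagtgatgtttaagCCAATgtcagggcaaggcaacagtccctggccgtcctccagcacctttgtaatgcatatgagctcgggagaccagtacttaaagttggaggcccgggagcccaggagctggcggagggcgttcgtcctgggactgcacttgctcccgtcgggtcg
The letters of the other motifs were not in this window. The single arm was in 13.8% of all windows, the palindromic element in 0.057%, the forkhead motif in 3.42% and the GATA motif in 10.3%.

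FOXA1, the pioneer factor that prepares most ERα binding sites in luminal cells, lies on chromosome 14 from 37589552 to 37596059. It was at 249.7, 234 and 241 CPM with DMSO and at 234, 267 and 262 CPM with abemaciclib. The groups overlapped. On the log2 scale the difference was 0.07 (standard error 0.10, 95% interval -0.13 to 0.28, adjusted p = 0.64 in edgeR's quasi-likelihood test). Its relative FOXA3, better known from liver and gut, was at 78.6, 74.6 and 79.7 CPM with DMSO and fell to 17.2, 19.2 and 15.7 CPM with abemaciclib. The log2 fold change of FOXA3 was -2.15 (standard error 0.16, adjusted p = 2.43e-11 in edgeR's quasi-likelihood test), with no overlap between the groups. The share of FOXA3 in the summed FOXA counts thus went from 23.9% to 24.9% in the DMSO libraries to 5.65% to 6.87% in the abemaciclib libraries, and FOXA1 made up nearly all of the rest. FOXA2 had at most 0.086%.

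GATA3, on chromosome 10 from 8045378 to 8075198, encodes the zinc finger factor without which luminal cells do not form. Its level was 1676, 1786 and 1919 CPM in the DMSO libraries. It was 2078, 2193 and 1745 CPM in the abemaciclib libraries, the last of these in abemaciclib replicate 3. The first and second treated libraries lay above all controls, and the third lay within the control range. Its log2 fold change was 0.16 (95% interval -0.03 to 0.35, adjusted p = 0.213 in edgeR's quasi-likelihood test). Without abemaciclib replicate 3 it was 0.25, with an adjusted p of 0.00536 in the same test, so the call for GATA3 turned on 1 library.

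TRPS1, a GATA-type zinc finger protein that acts mainly as a repressor, lies on chromosome 8 from 115408496 to 115809673. It was at 1357, 1389 and 1591 CPM with DMSO and at 1407, 1419.6 and 1302 CPM with abemaciclib. The groups overlapped, with a log2 fold change of -0.07 (95% interval -0.25 to 0.11, adjusted p = 0.616 in edgeR's quasi-likelihood test). Within each library, the log2 ratio of TRPS1 to GATA3 was -0.30, -0.36 and -0.27 with DMSO and -0.56, -0.63 and -0.42 with abemaciclib. All 3 treated libraries thus had less TRPS1 for each unit of GATA3 than any control. The difference was -0.22 (p = 0.1, the smallest that a two-sided exact permutation test of 3 against 3 libraries allows, adjusted p = 0.125 over 5 ratios).

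A ratio within a library does not depend on how libraries are scaled. The log2 ratio of FOXA1 to ESR1 was 0.20 ± 0.14 with DMSO and -0.55 ± 0.17 with abemaciclib (SD, n = 3 each). FOXA1 counts therefore went from 1.15 to 0.682 for each ESR1 count, and the libraries of the groups did not overlap. For GATA3 the ratio to ESR1 went from 8.52 to 5.36, also with no overlap. The differences on the log2 scale were -0.75 and -0.67 (p = 0.1 each in a two-sided exact permutation test, adjusted p = 0.125 each). This test could not reach a p under 0.05 for any ratio with 3 libraries in each group.

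**Figure D2:**
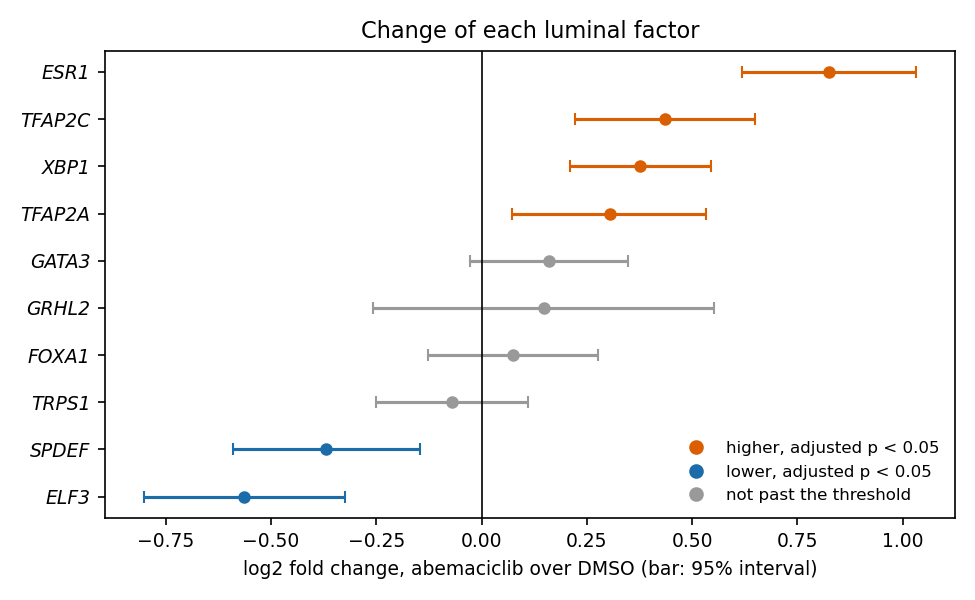
Log2 fold change of each luminal factor, abemaciclib over DMSO, with its 95% interval from edgeR. Orange marks genes called higher, blue marks genes called lower and grey marks those that did not pass; ESR1 lies farthest to the right at 0.83 and ELF3 farthest to the left at -0.56.

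The AP-2 factors bind GC-rich elements and help to keep the luminal state, and TFAP2C is also known to act on the ESR1 gene. TFAP2C, on chromosome 20 from 56629306 to 56639283, was at 271, 252 and 221 CPM with DMSO. It rose to 308, 323 and 375 CPM with abemaciclib. The groups did not overlap, and the nearest values were 271 CPM in a control and 308 CPM in a treated library. As a log2 fold change this was 0.43 (standard error 0.10, 95% interval 0.22 to 0.65, adjusted p = 0.00243 in edgeR's quasi-likelihood test), a 1.35-fold difference in level.

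TFAP2A, on chromosome 6 from 10393186 to 10419659, was at 291, 299 and 271 CPM with DMSO and at 308, 319.7 and 435 CPM with abemaciclib. The groups did not overlap, but only abemaciclib replicate 3, the library at 435 CPM, was far above the controls. The fitted log2 difference was 0.30 (standard error 0.11, 95% interval 0.07 to 0.53, adjusted p = 0.0463 in edgeR's quasi-likelihood test). Without abemaciclib replicate 3 it was 0.13 (adjusted p = 0.337 in the same test), and DESeq2 gave an adjusted p of 0.0608, so the call for TFAP2A depended on that library and on the test. With total counts as the scaling in edgeR's test, the adjusted p was 0.0584. The call was also lost without any one of the DMSO libraries, with adjusted p-values of 0.111, 0.0989 and 0.166 for replicates 1, 2 and 3 in edgeR's test.

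A further AP-2 gene, TFAP2B, was more abundant than either in the controls, at 490.5, 437 and 443 CPM. It was at 394, 421 and 425 CPM with abemaciclib, every value below every control, but the log2 fold change of -0.14 did not pass (adjusted p = 0.277 in edgeR's quasi-likelihood test). The share of TFAP2B in the summed AP-2 counts was 44.2% to 47.4% with DMSO and 34.4% to 39.5% with abemaciclib. That of TFAP2C was 23.6% to 25.8% with DMSO and 30.4% to 30.5% with abemaciclib. That of TFAP2A was 27.6% to 30.3% with DMSO and 30.1% to 35.2% with abemaciclib, with overlap, and its highest share was in abemaciclib replicate 3. Each treated library thus had a smaller share of TFAP2B and a larger share of TFAP2C than any control. The log2 ratio of TFAP2C to TFAP2A, by contrast, overlapped between the groups, with a difference of 0.15 (p = 0.2, adjusted p = 0.2, two-sided exact permutation test).

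SPDEF and ELF3 are ETS factors with an epithelial pattern, and both fell. SPDEF, which promotes luminal and secretory differentiation, lies on chromosome 6 from 34537802 to 34556333. It was at 229, 220.1 and 249.9 CPM with DMSO and at 205, 178 and 159 CPM with abemaciclib. Every treated library lay below every control. In log2 terms the change was -0.37 (standard error 0.11, 95% interval -0.59 to -0.15, adjusted p = 0.0119 in edgeR's quasi-likelihood test). The call was lost without DMSO replicate 3 (-0.32, adjusted p = 0.0692) and without abemaciclib replicate 2 (-0.36, adjusted p = 0.0507, same test).

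ELF3, a factor of terminal epithelial differentiation, lies on chromosome 1 from 202007945 to 202017183. It was at 144, 162 and 175 CPM with DMSO. It was at 120.4, 111 and 95.4 CPM with abemaciclib, again with every treated library below every control. The log2 fold change was -0.56 (standard error 0.12, 95% interval -0.80 to -0.32, adjusted p = 0.000553 in edgeR's quasi-likelihood test), and the level with abemaciclib was 0.677 of that with DMSO. The log2 ratio of ELF3 to SPDEF was lower in every treated library than in any control, with a difference of -0.19 (p = 0.1, adjusted p = 0.125, two-sided exact permutation test).

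The promoter windows of both are given because they were the luminal factors that fell. The SPDEF window lies on the minus strand at chr6:34556280-34556579 and held a CCAAT box at position -193. The ELF3 window lies on the plus strand at chr1:202010337-202010636 and held a CCAAT box at -73 and a TATA box at -34, a motif found in 11.5% of all windows.
SPDEF promoter: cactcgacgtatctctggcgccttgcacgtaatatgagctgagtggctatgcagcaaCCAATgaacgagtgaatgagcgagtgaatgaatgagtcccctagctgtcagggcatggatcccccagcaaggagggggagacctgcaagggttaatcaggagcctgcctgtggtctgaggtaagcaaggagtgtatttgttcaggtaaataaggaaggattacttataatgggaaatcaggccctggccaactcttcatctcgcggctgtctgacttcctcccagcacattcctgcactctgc
ELF3 promoter: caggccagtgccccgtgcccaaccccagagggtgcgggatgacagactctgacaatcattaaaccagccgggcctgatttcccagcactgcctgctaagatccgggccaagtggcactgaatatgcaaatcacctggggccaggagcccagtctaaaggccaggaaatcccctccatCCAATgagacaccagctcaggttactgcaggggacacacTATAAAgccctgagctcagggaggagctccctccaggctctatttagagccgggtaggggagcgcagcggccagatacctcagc
Neither window held the letters of the ETS or E2F motif, which were in 17.2% and 6.55% of all windows. The GC content was 52.0% for SPDEF and 59.0% for ELF3, beside 58.3% for ESR1 and a median of 58.7% over all windows.

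Another epithelial ETS factor, EHF, moved the other way. EHF was at 308, 303 and 281 CPM with DMSO and rose to 447, 539 and 531 CPM with abemaciclib, with no overlap. The log2 fold change of EHF was 0.77 (standard error 0.10, adjusted p = 5.86e-07 in edgeR's quasi-likelihood test). EHF therefore made up 39.8% to 45.2% of the summed counts of EHF, SPDEF, ELF3 and ELF5 with DMSO and 57.8% to 67.7% with abemaciclib. The summed level of these ETS factors was 691 ± 12.8 CPM with DMSO and 795 ± 28.7 CPM with abemaciclib (SD, n = 3 each), so it did not fall although SPDEF and ELF3 did. ELF5 had at most 0.085% of the sum in any library.

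**Figure D3:**
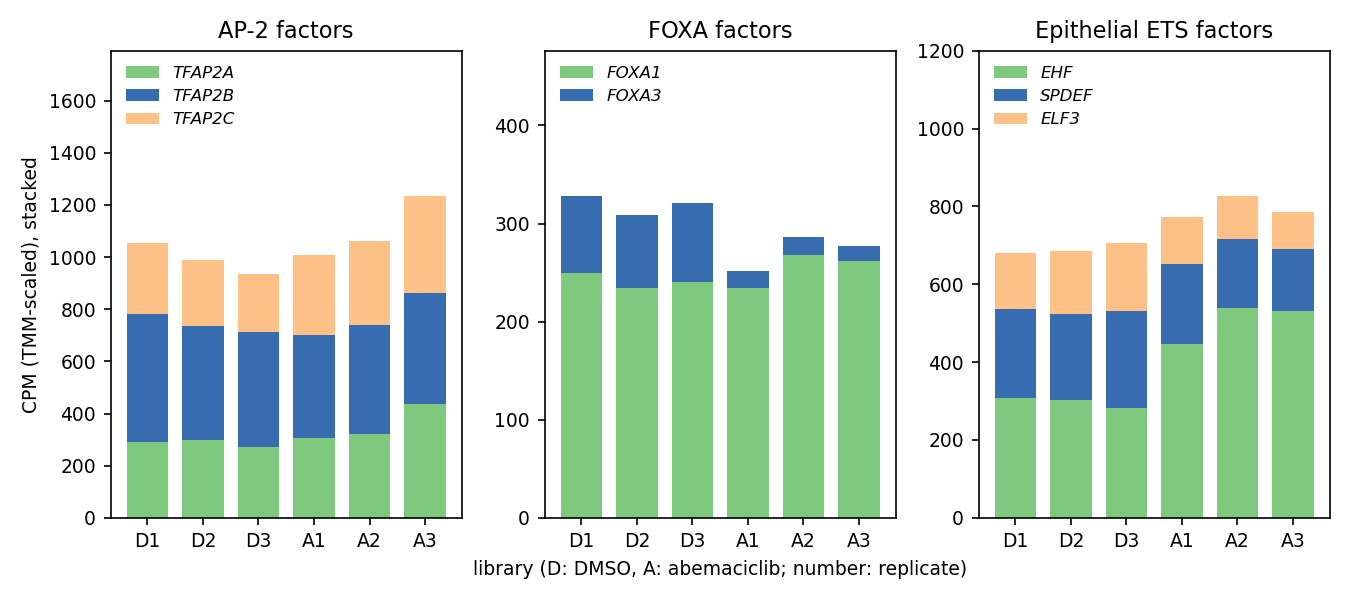
Stacked levels, in CPM, of the AP-2, FOXA and epithelial ETS factors in the 3 DMSO libraries (D1 to D3) and the 3 abemaciclib libraries (A1 to A3). FOXA3 shrank from 77.6 to 17.4 CPM on average above a FOXA1 level whose change did not pass the test, and EHF grew from 298 to 506 CPM while SPDEF and ELF3 fell.

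XBP1 encodes a leucine zipper factor that is induced through ERα in luminal cells and that switches on genes of the endoplasmic reticulum once its mRNA is spliced. A count at the 3′ end cannot tell the spliced from the unspliced form. The gene lies on chromosome 22 from 28794555 to 28800597. It was at 1580.2, 1535 and 1535 CPM with DMSO and at 2056, 1996 and 1988 CPM with abemaciclib. Relative to its level XBP1 varied least of the set within groups, with coefficients of variation of 1.67% and 1.85%, and the groups were well separated. On the log2 scale the difference was 0.38 (standard error 0.08, 95% interval 0.21 to 0.55, adjusted p = 0.000866 in edgeR's quasi-likelihood test), a 1.3-fold difference in level.

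The promoter of XBP1, on the minus strand at chr22:28800520-28800819, held an ERSE at position -52 and a GC box at position 3. The ERSE is the element through which factors of the unfolded protein response act, XBP1 among them, and it was in only 0.0769% of all windows.
XBP1 promoter: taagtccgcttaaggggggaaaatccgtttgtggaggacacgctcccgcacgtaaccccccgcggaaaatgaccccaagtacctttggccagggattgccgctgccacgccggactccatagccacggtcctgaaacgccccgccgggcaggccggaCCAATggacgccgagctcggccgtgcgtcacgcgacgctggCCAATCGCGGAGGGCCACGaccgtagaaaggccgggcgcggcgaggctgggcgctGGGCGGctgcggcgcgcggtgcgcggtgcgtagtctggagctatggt
The same motif was sought in the promoters of 26 genes of the secretory apparatus that XBP1 is known to drive, of which 24 had a window. Of these, 3 held it (12.5%, beside 0.0916% of the 27305 genes with a window). Because the list was made of known XBP1 targets, a share above that of all genes was built in and is no test. The elements of XBP1 and of these 3 genes are set out together, with the fixed letters in capitals and the spacer in lower case.
XBP1, chr22:28800603-28800621: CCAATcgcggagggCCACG
PDIA6, chr2:10812853-10812871: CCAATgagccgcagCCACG
SERP1, chr3:150546710-150546728: CCAATtcgctgtctCCACG
CRELD2, chr22:49918554-49918572: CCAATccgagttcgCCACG
The SERP1 and CRELD2 elements lie in windows shared with a neighbouring gene on the other strand. PDIA6, a disulphide isomerase, rose by 0.36 on the log2 scale, SERP1, which stabilizes new membrane proteins, by 0.62 and CRELD2, a chaperone of the endoplasmic reticulum, by 0.77 (adjusted p = 0.0111, 2.13e-05 and 7.84e-05 in edgeR's quasi-likelihood test). In the whole list 15 of 26 genes were higher, so these rises do not set the carriers of the motif apart. The motif is a match of letters, and binding was not measured in these files.

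Of all 26 secretory genes, which were all tested, 15 were higher and 0 were lower (0 lower also at an unadjusted p under 0.05 and by DESeq2), with a median log2 fold change of 0.46. SSR3 and SSR4, subunits of the translocon-associated protein complex, had log2 fold changes of 0.96 and 0.83. SEC24D, a coat protein of vesicles leaving the endoplasmic reticulum, had one of 0.94. The summed level of the list was 2650 to 2821 CPM with DMSO and 3907 to 4049 CPM with abemaciclib, with no overlap. HERPUD1, which responds to stress in the endoplasmic reticulum, was at 29.6 ± 3.68 and 28.5 ± 1.33 CPM (SD, n = 3 each). DNAJB9 was at 10.1 ± 1.61 and 13.3 ± 2.37 CPM. Both were among the 11 genes of the list that did not pass, and the pair was chosen after their values were seen. Among the 15 that were higher, DNAJC3, HYOU1 and PDIA4 had log2 fold changes of 0.66, 0.53 and 0.50 (adjusted p = 0.00112, 0.00236 and 0.00126 in edgeR's quasi-likelihood test).

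GRHL2, a grainyhead-like factor that maintains epithelial junctions, lies on chromosome 8 from 101492439 to 101669726 and was the least abundant of the set. It was at 30.2, 35.4 and 27.9 CPM with DMSO and at 26.3, 32.1 and 44.9 CPM with abemaciclib. The groups overlapped, and the highest value was again that of abemaciclib replicate 3. Its log2 fold change was 0.15 (95% interval -0.26 to 0.55, adjusted p = 0.646 in edgeR's quasi-likelihood test). Without abemaciclib replicate 3 it was -0.09, so no direction could be given. GRHL1 was at 9.48 and 8.02 CPM on average and did not pass, and GRHL3 had at most 0.725% of the family's counts.

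Of 22 epithelial genes of junctions and splicing, many of them known targets of GRHL2, 7 were higher and 2 lower, with a median log2 fold change of 0.22. TJP3, a tight junction scaffold, rose by 0.64 on the log2 scale, SPINT1, a protease inhibitor of the epithelial surface, by 0.57 and RAB25, a trafficking protein of epithelia, by 0.47. ESRP1, a splicing regulator specific to epithelia, went from 54.9 ± 5.51 to 29.8 ± 7.07 CPM (SD, n = 3 each), a log2 fold change of -0.88 (adjusted p = 0.000431 in edgeR's quasi-likelihood test). The number higher was 4 under total-count scaling, and 4, 3 and 4 without DMSO replicate 2, DMSO replicate 3 and abemaciclib replicate 2. Without abemaciclib replicate 3 the number lower was 4.

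**Figure D4:**
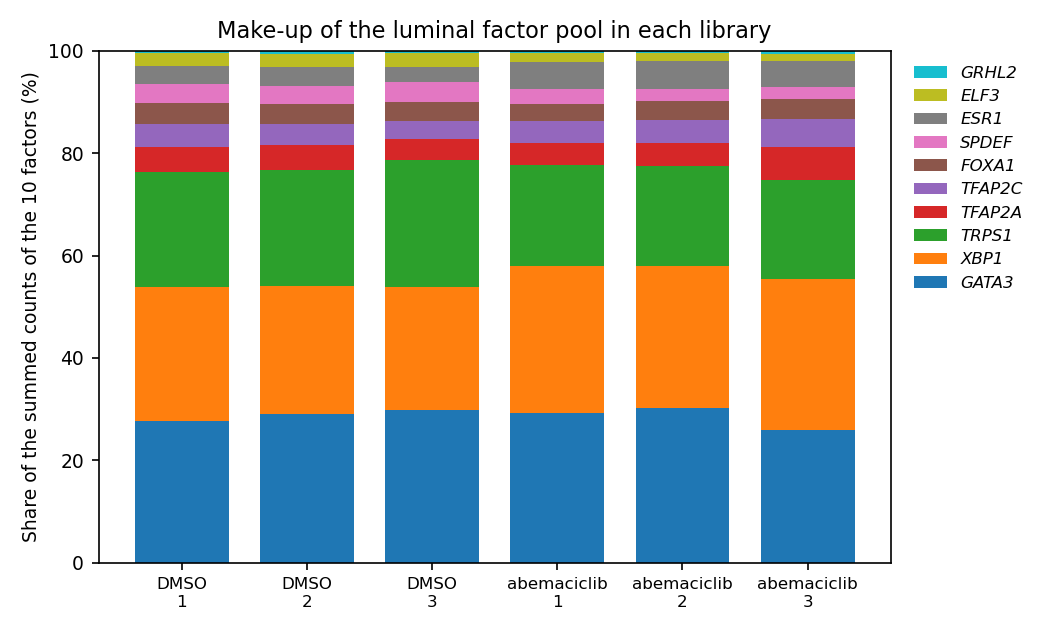
Share of the summed counts of the 10 luminal factors taken by each factor, in percent, in the 3 DMSO and the 3 abemaciclib libraries. GATA3, XBP1 and TRPS1 fill most of every bar, and the segments of ESR1 and XBP1 are wider, and those of TRPS1, SPDEF and ELF3 narrower, in all abemaciclib bars.

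Within the summed counts of the set, which need no scaling between libraries, the share of ESR1 was 3.40 ± 0.37% with DMSO and 5.30 ± 0.22% with abemaciclib (SD, n = 3 each). The share of XBP1 was 25.0 ± 1.12% and 28.6 ± 0.96%, respectively. TRPS1 went from 23.3 ± 1.30% to 19.6 ± 0.23%, SPDEF from 3.76 ± 0.16% to 2.56 ± 0.28% and ELF3 from 2.59 ± 0.18% to 1.54 ± 0.14%. These 5 shares did not overlap between the groups. The shares of GATA3, FOXA1, TFAP2A, TFAP2C and GRHL2 did.

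Among 18 relatives of the luminal factors in the same gene families, 9 were tested, of which 2 rose (EHF and ELF1) and 3 fell (FOXA3, ELF4 and ELF2), with a median log2 fold change of -0.14. ELF1, a broadly expressed ETS factor, had a log2 fold change of 0.52 and ELF4 one of -0.83 (adjusted p = 0.00222 and 0.0153 in edgeR's quasi-likelihood test). The call of ELF4 was lost without DMSO replicate 1 (adjusted p = 0.102) or abemaciclib replicate 1 (adjusted p = 0.0849), and the number of relatives that were lower was 1 without the latter. GATA1, GATA4 and GATA5 had no count in any library.

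Among 22 other transcription factors of luminal cells, 20 were tested: 6 rose and 4 fell, with a median log2 fold change of 0.06. The largest change was in PGR, the progesterone receptor and a classical target of ERα, which was at 103 ± 13.9 CPM in controls and 53.3 ± 5.30 CPM in treated cells (SD, n = 3 each). The log2 fold change of PGR was -0.95 (adjusted p = 4.04e-06 in edgeR's quasi-likelihood test), opposite to that of ESR1. RUNX1, a partner of ERα on DNA, rose by 0.78 on the log2 scale, while NR2F1, an orphan nuclear receptor, had a log2 fold change of -0.60. KLF5, a zinc finger factor, had one of -0.57, a call that did not hold when DMSO replicate 2 (-0.38) or abemaciclib replicate 2 (-0.53) was left out (adjusted p = 0.172 and 0.0626 in edgeR's test). Without DMSO replicate 2 the counts of this list were 3 higher and 2 lower.

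Among 25 known targets of the oestrogen receptor, 24 were tested: 13 rose and 1, PGR, fell, with a median log2 fold change of 0.57. PDZK1, a scaffold of membrane transporters, went from 5.54 ± 1.10 to 77.7 ± 8.36 CPM (SD, n = 3 each), a log2 fold change of 3.80. TFF1, a secreted trefoil peptide, had a log2 fold change of 2.50, TPD52L1 one of 2.09 and RET, a receptor tyrosine kinase, one of 1.70, all past the threshold. The summed level of the list was 3936 to 4039.6 CPM with DMSO and 9071 to 9583.5 CPM with abemaciclib. This sum was weighted by its most abundant genes. TFF1 averaged 622 CPM with DMSO and 3511 CPM with abemaciclib, and CCND1, which encodes cyclin D1, 1180 and 2985 CPM. Without abemaciclib replicate 2, 2 targets of the list were lower.

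**Figure D5:**
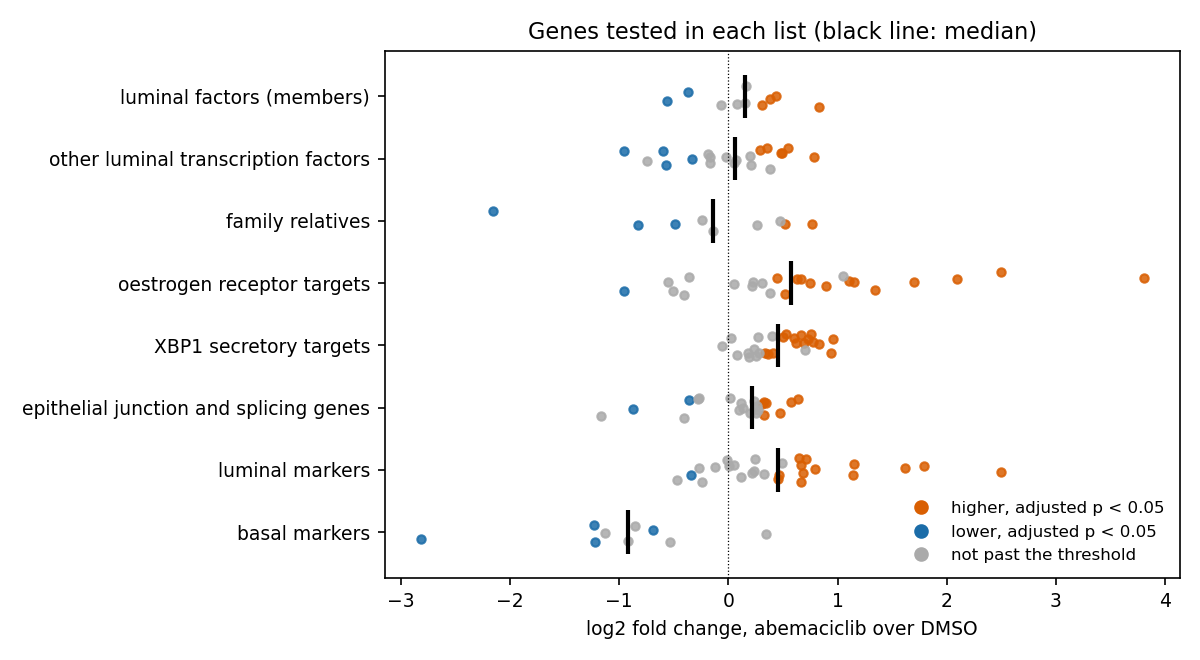
Log2 fold change, abemaciclib over DMSO, of each tested gene in the set and in 7 lists of related genes, with orange for genes called higher, blue for genes called lower, grey for the others and a black line at each list's median. The medians run from -0.92 for the basal markers to 0.57 for the oestrogen receptor targets, with the luminal factors at 0.15.

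The cells carried the markers of their label. Of 27 luminal markers, all tested, 13 were higher and 1, KRT18, was lower, with a median log2 fold change of 0.45. The number lower was 2 without DMSO replicate 1, without abemaciclib replicate 3 and under total-count scaling. ANXA9 rose by 1.79, TFF3 by 1.62 and CA12 by 1.15 on the log2 scale. Some luminal markers, TFF1 and CA12 among them, are also in the list of oestrogen receptor targets, and others in that of epithelial junction genes. The lists are therefore not independent. KRT8, a luminal keratin, was at 669 ± 30.7 and 665 ± 61.4 CPM, and its partner KRT18 at 689 ± 35.3 and 543 ± 32.1 CPM (SD, n = 3 each). Of 22 basal markers, 9 were tested, of which 4 were lower and 0 higher (0 also at an unadjusted p under 0.05 and by DESeq2), with a median of -0.92. The 4 were ACTA2 (-2.82), ITGB4 (-1.23), FOXC1 (-1.22) and CDH3 (-0.69), on the log2 scale. The summed basal level was 159 to 206 CPM with DMSO and 101 to 105 CPM with abemaciclib, and 8 of these markers, the defining basal keratins KRT5 and KRT14 and TP63 among them, were at 0 counts in every library. Of 10 transcription factors of the epithelial to mesenchymal transition, 2 were tested, and TCF4 was lower, at 4.55 ± 0.72 CPM with DMSO, a call lost with at least 10 counts required in every library and without DMSO replicate 2 or abemaciclib replicate 2, while 2 were lower without abemaciclib replicate 1. Of 12 stromal and immune markers 1 was tested and none was called, with a summed level of 11.6 to 16.1 CPM with DMSO and 10.4 to 15.9 CPM with abemaciclib.

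Genes that overlap the luminal factors were examined because the strand setting of the counting is not known. No exon of another gene overlapped the last 1000 bases of the main transcript of any of the 10. GATA3-AS1, a divergent antisense transcript of GATA3, had 34 to 57 counts in each library, ELF3-AS1 8 to 28 and TTC6, opposite to FOXA1, 28 to 59, and none of these passed the test. The XBP1 pseudogene XBP1P1 had 0 counts in all 6 libraries.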

How the data were processed

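Libraries were grouped by treatment as their labels give it. The authors prepared 3′ mRNA libraries with a Lexogen kit, trimmed reads by BBDuk, mapped these with STAR 2.7.5b on hg38 and made gene counts in featureCounts 2.0.1 (versions per the submitters' processing notes); the strand setting is not given in the sources used here. The deposited values are raw counts per gene, without normalization or filter, and 40227 of the 60656 genes were at 0 throughout. Identifiers matched a symbol for 60445 genes. The libraries are described as biological replicates of 1 experiment.

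Abemaciclib was compared with DMSO by edgeR 4.0.16 in R 4.3.3 (filterByExpr, TMM, glmQLFit, glmQLFTest, treatment as the only term), with Benjamini–Hochberg adjustment over 10863 genes and a threshold of 0.05. The standard error is the log2 fold change divided by the root of F. The biological coefficient of variation was 13.2%. Ratios were taken on counts plus 0.5 and compared by exact permutation (scipy 1.17.1), two-sided, over 5 pairs. Positions are from GENCODE 44 (GRCh38) and promoters from RefSeq (GRCh38.p14).

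The luminal factors and the lists of related genes were chosen with earlier results of these data known. The named genes are all 10 factors, MKI67 and, from each list, up to 4 genes with the largest changes among those called, without overlap and at a mean of at least 5 CPM, plus relatives and neighbours of the factors. Others (HERPUD1, DNAJB9, DNAJC3, HYOU1, PDIA4, CCND1, KRT8, KRT18, TCF4, PDIA6 and SERP1) were named after their values were seen. No library was a duplicate of another.

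Tested on simulated counts with 200 genes changed, the comparison called 169 of 10860 genes, 4 of them falsely, and recovered 85.5%. With none changed it called 0 of 10838. Recovery at the fold changes of the luminal factors was not tested, so the 85.5% does not apply to them. Alternatives were DESeq2 1.42.0, edgeR scaled by the size factors of DESeq2 or by library totals alone, edgeR without the filter or with a minimum of 10 counts per library, a term for the replicate number, leaving out single libraries, and a tested log2 fold change of 0.5 (glmTreat).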

Additional observations from a re-analysis of the deposited data

How the results depend on the processing

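Under the 12 alternatives other than a required log2 fold change of 0.5, ESR1, TFAP2C, XBP1 and ELF3 kept their direction and their call, with log2 fold changes of 0.76 to 0.89, 0.35 to 0.50, 0.36 to 0.39 and -0.64 to -0.47. The required log2 fold change of 0.5 left 1 luminal factor, ESR1, higher and 0 lower, so that TFAP2C, XBP1 and ELF3 were not called there. With each library left out in turn, 3 to 4 luminal factors were higher and 1 to 2 lower, and the numbers were 1 to 3 lower for the family relatives, 3 to 7 higher and 2 to 4 lower for the other luminal transcription factors, 1 to 2 lower for the oestrogen receptor targets, and 3 to 7 higher and 2 to 4 lower for the epithelial junction and splicing genes. Total counts as the only scaling gave 4 higher for this last list. The log2 fold change of GRHL2 ran from -0.086 (without abemaciclib replicate 3) to 0.304, and that of TRPS1 from -0.118 to 0.003 (without DMSO replicate 3), and the cause was not tested. The counts over all genes were 1069 higher and 1165 lower with DESeq2, and 291 and 579 with the required fold change, where 33.4% of the called genes were higher, beside 48.4% with no such requirement.

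Deviations from the group means gave no sign that the replicate numbers pair the samples. They correlated at -0.0434, 0.00705 and -0.0893 for same-numbered libraries, and at -0.0551 to 0.0959 for differently numbered ones. The labels do not say whether the replicates were handled in pairs. With the replicate block, 3 luminal factors were higher and 2 lower, the call of TFAP2A being lost (adjusted p = 0.111 in edgeR's quasi-likelihood test), the epithelial junction and splicing genes had 4 higher, and over all genes 1139 were higher and 1280 lower.

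GRHL2 had the fewest counts of the set, with 87 to 166 counts in each library.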
